A study of Mus musculus with 24 samples.

Results

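The genes of the cytosolic ribosomal proteins were followed in 4 tissues (liver, brain, heart and skeletal muscle) of mice that were WT or *Rap1* KI/KI. Members were taken by name, from all non-control probes whose accession belongs to a gene called Rpl or Rps with a number, *Rplp0* to *Rplp2* or *Rpsa*, with pseudogenes left out and the probe with the highest mean over all arrays kept for each gene. The rule found 171 probes for 83 genes, of 55681 probes and 21368 named genes in all. Of the 83 genes, 32 belong to the small subunit and 51 to the large one. *Fau* and *Rpl36al*, which also encode ribosomal proteins, fall outside the naming rule and are counted with the other translation genes. *Rps4l* matched by name but is annotated as a transcribed pseudogene and was left out.

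All mice were males and none was treated. The *Rap1* KI/KI mice carry a CRISPR/Cas9 point mutation, I312R, in the gene for the telomere protein RAP1 in their germline, and the line was crossed back 4 times to C57BL6, a strain the study's methods give as C57BL/6N. The WT mice carry the unedited gene. Each genotype had 3 mice, 1 aged 5 months and 2 aged 2 months, and the same 6 mice gave all 4 tissues, so that 24 one-colour arrays fall into 8 groups of 3. Every cell of a *Rap1* KI/KI mouse carries the change, so an effect within a tissue and an effect reaching it from another organ cannot be told apart. RNA was extracted from brain and liver with one kit and from heart and muscle with another, and the kit and the tissue cannot be told apart in comparisons between those pairs of tissues.

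Ribosomal proteins surround the ribosomal RNA in both subunits of the ribosome, the small one decoding the messenger and the large one joining amino acids. Their genes are among the most strongly expressed in most cells, and their messengers typically start with a run of pyrimidines, the terminal oligopyrimidine tract, through which their translation answers to growth signals. A few have paralogues that take the place of the usual protein in certain tissues, the best known being *Rpl3l*, which replaces *Rpl3* in striated muscle.

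Promoter sequences were searched for a run of pyrimidines near the annotated transcript start. RefSeq windows on GRCm38.p6 were at hand for 63 of the 83 genes. Printed are 8 windows of genes named in the text, and other named genes had windows that are not printed. Each window runs from 45 bases before the annotated transcript start to 20 bases from the start on, 5′ to 3′ on the gene's strand. The capitals mark the longest run of C and T within 5 bases of the start. In *Rps27l*, *Rpl39l* and *Rpl3l* this run lies wholly before the annotated start, so it is not part of the annotated messenger.
Rps6: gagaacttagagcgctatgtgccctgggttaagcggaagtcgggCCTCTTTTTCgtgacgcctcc
Rps9: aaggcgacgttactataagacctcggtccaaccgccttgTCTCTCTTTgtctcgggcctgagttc
Rps27: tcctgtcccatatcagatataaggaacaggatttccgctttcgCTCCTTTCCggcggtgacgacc
Rps27l: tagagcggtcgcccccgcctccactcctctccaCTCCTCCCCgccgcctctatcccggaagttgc
Rpl22l1: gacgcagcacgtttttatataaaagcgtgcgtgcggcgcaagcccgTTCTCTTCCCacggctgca
Rpl39: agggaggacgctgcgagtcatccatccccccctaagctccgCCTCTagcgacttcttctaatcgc
Rpl39l: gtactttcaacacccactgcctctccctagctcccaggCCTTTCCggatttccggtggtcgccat
Rpl3l: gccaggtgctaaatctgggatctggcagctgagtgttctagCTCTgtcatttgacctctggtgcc
The windows lie at chr4:86857348-86857412, minus strand, for *Rps6*, at chr7:3703996-3704060, plus strand, for *Rps9*, at chr3:90213629-90213693, minus strand, for *Rps27*, and at chr9:66946041-66946105, plus strand, for *Rps27l*. Those of *Rpl22l1*, *Rpl39*, *Rpl39l* and *Rpl3l* lie at chr3:28805463-28805527, plus strand, at chrX:37085203-37085267, minus strand, at chr16:10170183-10170247, plus strand, and at chr17:24727781-24727845, plus strand.

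The marked run was 10 bases long in *Rps6*, whose protein is the target of the S6 kinases, and 10 in *Rpl22l1*. It was 9 bases long in *Rps9*, in *Rps27* and in *Rps27l*. In *Rpl39* it was 5 bases, in *Rpl39l* 7 and in *Rpl3l* 4. Of the named genes not printed, *Rpl7l1*, *Rpl22* and *Rpl10* had runs of 1 base, *Rplp0* 4 and *Rps2* 6, while *Rpl18* and *Rpl32l* had 10. A run of at least 7 was found in 27 of the 63 genes (42.9%) against 3796 of 27025 genes in the table (14.0%), with a median run of 5 bases against 3. *Rpl3l*, the gene with the widest tissue range, was thus among the 36 genes under 7 bases.

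In the full 300-base windows, 250 before the start and 50 after, other motifs were searched on both strands, with overlaps allowed. The letters CCGGAAG, a core bound by ETS factors, were found in 24 of the 63 genes (38.1%) and in 9.12% of all genes. AAGATGGC, a YY1 core, was found in 5 (7.94%) and in 2.88% of all. TATAAA was found in 7 (11.1%) and in 14.2% of all. These are letter matches in fixed windows, and binding was not measured. The other 20 genes had no window.

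The tissues carried their own defining genes. The mean level of 10 hepatocyte, 10 neuron, 10 cardiomyocyte or 10 muscle fibre markers ran from 4.58 to 8.93 in the tissue of that name and was at most 1.69 elsewhere. A level is the log2 signal minus that array's 75th percentile, so 0 is the 75th percentile and 1 unit is a doubling of signal. The highest value outside brain came from the muscle array of KI mouse 3, with a neuron marker mean of 1.69 against -3.94 to -1.8 on the other muscle arrays. In heart, the adipocyte markers had means of 3.05 in KI mouse 1 and 3.91 in KI mouse 3, against 0.98 in KI mouse 2 and -1.14, 0.95 and 1.07 in the WT mice. The 75th percentile of signal ran from 470.7 to 1389 over the arrays, 56.48% to 72.73% of probes were well above background, and 0 spots were saturated. The edited gene, *Terf2ip*, had mean levels from 0.98 to 1.71 over the 8 groups, and since its probe reports messenger amount it does not show the point mutation. In whole tissue, fewer cells of a type and less RNA per cell cannot be told apart.

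Ribosomal protein genes were bright in every tissue. The median of the 83 genes stood at percentile 98.6 or above among all probes on every array, which is a rank of brightness and not of molecules. Its level was 7.36 ± 0.14 in liver (SD, n = 6, from 7.20 to 7.59), 6.16 ± 0.09 in brain (6.07 to 6.24), 7.19 ± 0.20 in heart (6.96 to 7.47) and 7.32 ± 0.12 in muscle (7.15 to 7.44). The brain arrays lay below all others, and those of the other tissues overlapped.

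That order depended on the scaling. The bright end of the arrays was itself lower in brain, where the 99th percentile lay at 6.28, against 7.56 in liver, 7.26 in heart and 7.50 in muscle. After quantile normalization, which gives every array the same distribution, the median of the 83 genes was 6.92 ± 0.05 in liver, 7.02 ± 0.06 in brain, 7.09 ± 0.06 in heart and 6.99 ± 0.04 in muscle. Brain was then above liver, with the tissue means between 6.92 and 7.09. The authors' z-scores were multiplied by 4.234, the mean SD of the log2 signals, to put them on a log2-like scale. On that scale brain stayed low, with a median difference from the other tissues of -0.70.

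**Figure D1:**
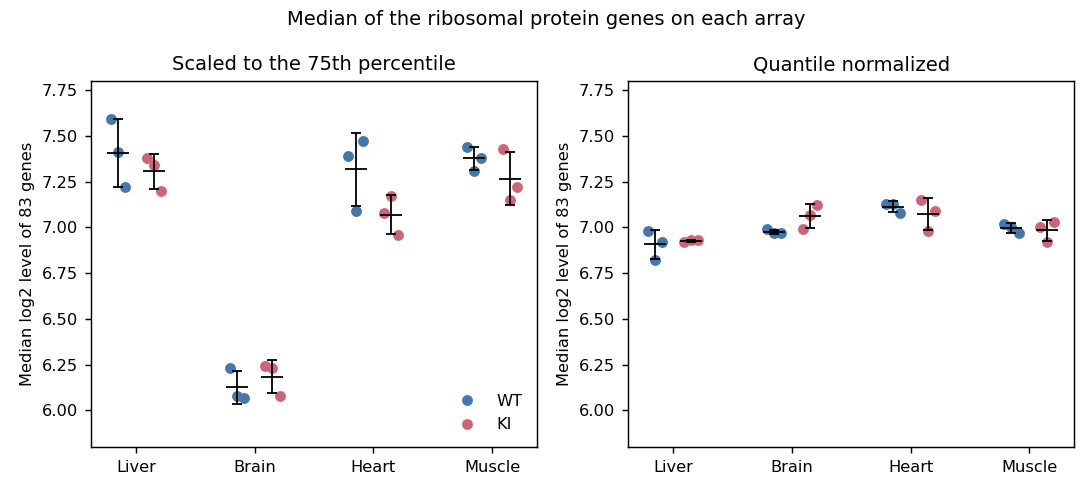
Median log2 level of the 83 ribosomal protein genes on each of 24 arrays (points, blue WT and red KI; lines, mean and SD of 3 mice), scaled to the 75th percentile on the left and quantile normalized on the right. The brain arrays, from 6.07 to 6.24, lie below the rest on the left and among them on the right.

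Each tissue was then tested against the mean of the other 3 with limma over all 42463 probes tested, with Benjamini-Hochberg adjustment. 82 of the 83 genes passed the filter, the exception being *Rpl10l*. In brain, 80 of the 82 were lower and 1 was higher, with a median difference of -1.01, beside 47.4% of all probes lower, 29.8% higher and an all-probe median of -0.39. Quantile normalization turned this to 21 lower and 38 higher, with a median of 0.15, beside 44.9% and 32.3% of probes. In liver, 52 were higher and 4 lower with a median of 0.33 (39.4% and 37.8% of all probes), and quantile normalization turned this to 10 and 48 with a median of -0.22 (38.3% and 39.6%).

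In muscle, 65 genes were higher and 1 lower (31.5% and 30.3% of all probes) with a median of 0.48, and under quantile normalization the counts were 15 and 16 (30.1% and 33.7%) with a median of 0.02. In heart, 37 were higher and 2 lower (27.5% and 30.1%) with a median of 0.24, and under quantile normalization 29 and 7 (28.1% and 31.3%) with a median of 0.12. Heart alone kept more members higher than lower under both scalings. The heart count fell to 21 in all without KI mouse 2, beside 21432 of 41649 probes, from 39, beside 24434 of 42463. All muscle arrays share slide 3 and all liver arrays slide 1, and with the slide as a block the counts were 24 higher and 1 lower in muscle (19.0% and 18.4% of all probes, median 0.47) and 17 and 1 in liver (27.4% and 23.7%, median 0.25).

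Centring each array on the members removes the shared shift and shows which genes differed from their own group. By this measure 16 were higher and 35 lower in liver (27.8% and 49.5% of all probes), 35 and 18 in brain (58.4% and 18.3%), 14 and 14 in heart (20.6% and 41.2%) and 26 and 14 in muscle (19.4% and 46.8%). The F test over the 4 tissues called 82 of 82 genes at the 75th percentile scaling, beside 93.0% of all probes, and 71 when centred, beside 94.2%. Within a tissue the typical gene's SD over 6 arrays was 0.15 to 0.22, and 0.10 to 0.15 after centring.

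**Figure D2:**
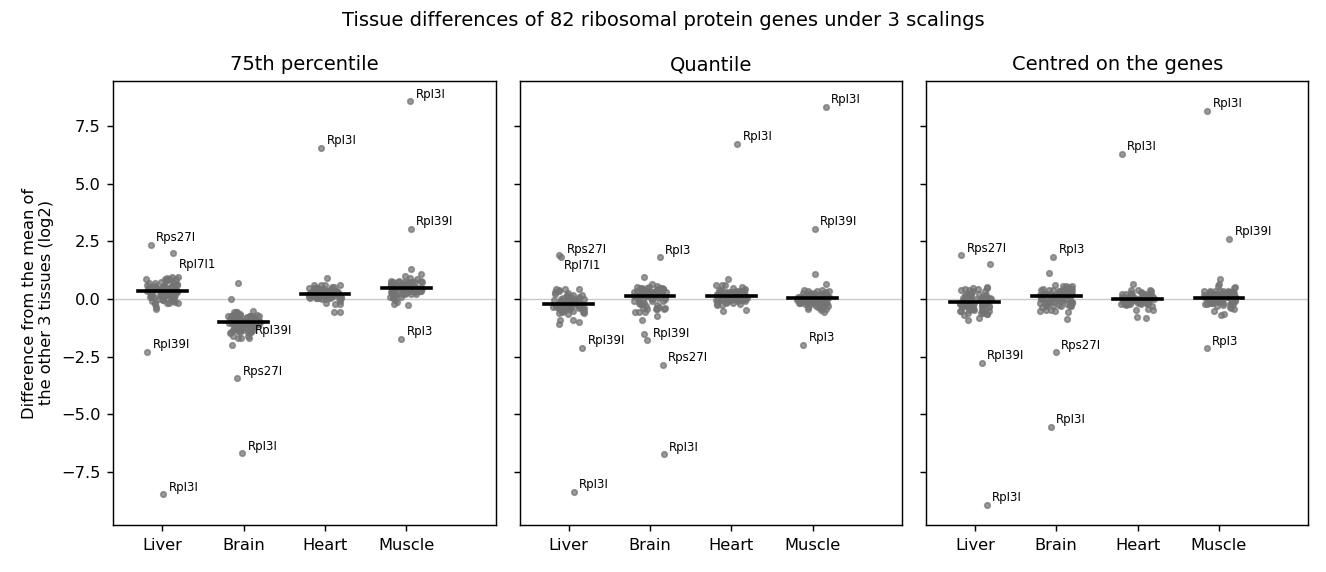
Log2 difference of each of the 82 tested genes (grey points) between a tissue and the mean of the other 3, under 3 scalings; black bars are medians over the genes. The brain median of -1.01 at the 75th percentile becomes 0.15 under quantile normalization, while *Rpl3l*, *Rps27l*, *Rpl39l* and muscle *Rpl3* stand away from the other genes in all panels.

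The largest differences from the mean of the other tissues were in genes with a like-named copy. Of the 82 genes, 6 differed by at least 1 log2 unit from that mean in some tissue after centring, namely *Rpl3l*, *Rpl39l*, *Rps27l*, *Rpl3*, *Rpl7l1* and *Rpl22l1*, and all are among the 14 genes that form 7 such pairs. Quantile normalization also gave 6, again all in pairs. Calls of that size after centring covered 17.8% (higher) and 37.0% (lower) of all probes in liver, 43.0% and 10.6% in brain, 12.4% and 21.4% in heart, and 10.9% and 28.1% in muscle. Under quantile normalization they covered 26.0% and 27.5% in liver, 23.3% and 29.3% in brain, 15.7% and 16.3% in heart, and 15.9% and 19.6% in muscle. The 69 genes outside pairs had a median range of 0.47 between their centred tissue means, and the widest, *Rpl13*, had 1.0. Between single tissues, 3 of them also differed by at least 1 unit under quantile normalization. In liver minus brain these were *Rpl13* (-1.14), *Rps21* (-1.03) and *Rps2* (1.01), and in liver minus muscle *Rpl13* (-1.05). *Rps21* was named after its values were seen.

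*Rpl3l*, at chr17:24727826-24736143, encodes the striated muscle form of the large-subunit protein next to the peptidyl transferase centre. Its levels (lowest, median and highest of 6 arrays) were 6.21, 6.67 and 6.73 in muscle and 3.84, 5.22 and 5.64 in heart. In brain they were -5.28, -4.94 and -4.28, and in liver -7.58, -5.77 and -5.42, with only 2 of 6 liver arrays well above background. Both striated tissues were far above the other tissues and muscle lay wholly above heart.

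Muscle exceeded the mean of the other tissues by 8.57 (SE 0.28, limma adjusted p = 2.3e-15), and heart exceeded its others by 6.55 (SE 0.28, adjusted p = 2.4e-13). Muscle was above heart by 1.51, coded as a heart minus muscle difference of -1.51 (SE 0.34, adjusted p = 1.2e-03), and by 1.21 under quantile normalization, coded as -1.21. Liver was below brain by a difference of -1.33 (SE 0.34, adjusted p = 1.5e-03), although most liver arrays give only a bound. With liver arrays set to the lowest signal well above background where they were under it, *Rpl3l* was at least 4810-fold higher in muscle and at least 1690-fold higher in heart than in liver. On the only slide holding both, 2 heart arrays lay below 6 muscle arrays by a difference of -1.98.

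*Rpl3*, at chr15:80077781-80083406, the partner found in most ribosomes, ran the other way. Its levels were 6.39, 6.54 and 6.71 in liver, 6.22, 6.35 and 6.49 in brain, 5.58, 5.83 and 6.13 in heart, and 4.36, 4.42 and 4.93 in muscle. Every muscle array was below every array of the other tissues, and heart lay below liver and brain. Muscle differed from the others by -1.71 (SE 0.10, limma adjusted p = 3.9e-11), by -1.98 under quantile normalization and by -2.13 when centred. Liver and brain differed by 0.20 (SE 0.13, adjusted p = 0.15), a sign that turned to -1.23 under quantile normalization and -0.99 when centred.

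A difference between both probes on the same array is free of any shift of the whole array, though not of differences in the shape of the signal distribution. Probes differ in how they bind, so this value can be compared between tissues but does not say which messenger is more abundant. For *Rpl3l* minus *Rpl3* it was -12.79 ± 0.92 in liver, -11.25 ± 0.43 in brain, -0.84 ± 0.77 in heart and 1.99 ± 0.48 in muscle (SD, n = 6). The ranges of brain, heart and muscle did not overlap. The liver value is not exact, since only 2 of 6 liver arrays held *Rpl3l* well above background. The WT muscle values were 2.27 ± 0.05 and those of *Rap1* KI/KI muscle 1.71 ± 0.58 (n = 3 each). By mouse they were 2.22, 2.32 and 2.27 in WT and 2.37, 1.5 and 1.28 in KI, so KI mouse 1 lay above every WT mouse. The value of 1.28 is from the array of KI mouse 3 with the raised neuron markers, whose part was not tested.

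**Figure D3:**
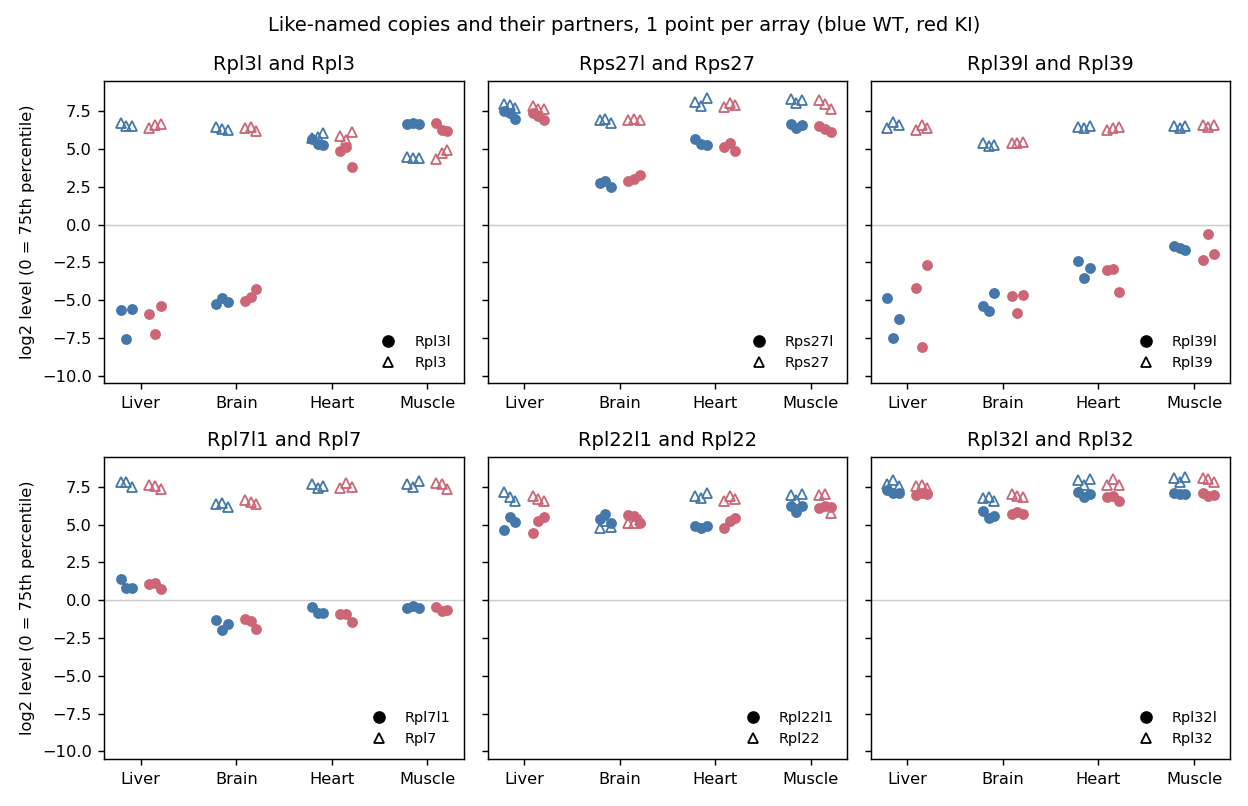
Log2 levels on each array (0 is the 75th percentile) of 6 like-named copies (filled circles) and their partners (open triangles) in 4 tissues, blue WT and red KI, 3 mice each. *Rpl3l* rises from a median of -5.77 in liver to 6.67 in muscle while *Rpl3* goes from 6.54 to 4.42, and *Rps27l* is lowest in brain at 2.88; heights of different genes are not comparable amounts.

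*Rps27l*, at chr9:66944624-66949522, is a copy of the small-subunit zinc-finger protein gene *Rps27* and is known as a target of p53. Its levels were 6.91, 7.27 and 7.53 in liver, 6.13, 6.47 and 6.63 in muscle, 4.88, 5.32 and 5.69 in heart, and 2.5, 2.88 and 3.27 in brain. No tissue overlapped another, in the order liver, muscle, heart, brain. Brain was below the mean of the others by a difference of -3.43 (SE 0.12, limma adjusted p = 5.9e-15), -2.84 under quantile normalization and -2.30 when centred. Liver was above by 2.35 (SE 0.12, adjusted p = 5.6e-13), 1.82 and 1.89 on those scales.

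All 6 pairs of tissues passed the test for *Rps27l*, the narrowest being liver over muscle by 0.79 (SE 0.14, adjusted p = 7.4e-05). On slide 1, where brain and liver were hybridized together, 2 brain arrays were below 6 liver arrays by a difference of -4.39, and on slide 2 brain and heart differed by -2.49 with 4 arrays each. The partner *Rps27* had mean levels of 7.8 in liver, 6.9 in brain, 8.01 in heart and 8.08 in muscle. Its brain difference of -1.07 (SE 0.11, adjusted p = 2.4e-08) became 0.15 (adjusted p = 0.092) under quantile normalization. Within arrays, *Rps27l* minus *Rps27* was -0.57 ± 0.12 in liver, -1.64 ± 0.08 in muscle, -2.72 ± 0.29 in heart and -4.01 ± 0.21 in brain, again with no overlap.

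*Rpl39l*, at chr16:10170197-10174911, is a copy of *Rpl39*, a small protein of the wall of the exit tunnel, and is best known from testis. Its probe was dim, with levels of -2.35, -1.64 and -0.65 in muscle, -4.45, -2.97 and -2.42 in heart, and -5.83, -5.06 and -4.55 in brain. In liver, where 3 of 6 arrays were well above background, they were -8.11, -5.55 and -2.68. Muscle was above brain and heart with a narrow gap to heart, while the liver range was wide enough to reach into the heart range.

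Muscle exceeded the others by 3.03 (SE 0.54, limma adjusted p = 7.5e-05), 3.03 under quantile normalization and 2.61 when centred. The heart minus muscle difference of -1.58 (SE 0.66) had an adjusted p of 0.061, and liver minus brain was -0.46 (SE 0.66, adjusted p = 0.53). *Rpl39*, on chromosome X, had mean levels of 6.5, 5.35, 6.41 and 6.53 in liver, brain, heart and muscle. Within arrays the pair differed by -8.14 ± 0.63 in muscle and -9.60 ± 0.71 in heart, whose ranges overlapped, and by -10.49 ± 0.56 in brain, which stood apart from muscle.

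*Rpl7l1*, at chr17:46773907-46782656, is related to *Rpl7* and works in building the large subunit rather than in the finished ribosome. Its levels were 0.74, 0.95 and 1.38 in liver, against -2.0, -1.46 and -1.24 in brain, -1.47, -0.86 and -0.46 in heart and -0.68, -0.5 and -0.37 in muscle. Liver lay above every other array, by 1.98 on average (SE 0.14, limma adjusted p = 1e-10), 1.92 under quantile normalization and 1.52 when centred. The brain difference of -1.42 (SE 0.14, adjusted p = 1.5e-08) was -1.50 under quantile normalization and -0.29 when centred. *Rpl7* itself, at 7.62, 6.40, 7.56 and 7.66 in liver, brain, heart and muscle, showed no such step in liver.

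*Rpl22l1* and *Rpl22* encode a pair of RNA-binding proteins of the large subunit. *Rpl22l1* had levels of 5.87, 6.21 and 6.26 in muscle, 5.09, 5.47 and 5.72 in brain, 4.43, 5.2 and 5.54 in liver and 4.76, 4.91 and 5.42 in heart. At this scaling every muscle array was above the rest. Muscle exceeded the mean of the others by 0.98 (SE 0.16, limma adjusted p = 2.6e-05), by 0.64 under quantile normalization and by 0.56 when centred, and on both of those scales brain exceeded its others by more. With the slide as a block the muscle difference was 0.81 (SE 0.34, adjusted p = 0.069).

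The partner *Rpl22* was low in brain, with 5.08 ± 0.21 against 6.78 ± 0.24 in liver, 6.82 ± 0.18 in heart and 6.73 ± 0.49 in muscle. Its brain difference was -1.70 (SE 0.15, adjusted p = 5e-09), -0.72 under quantile normalization and -0.57 when centred. *Rpl22l1* in brain was 0.01 from the mean of the others (SE 0.16, adjusted p = 0.97), but 0.97 above it under quantile normalization (adjusted p = 3e-05) and 1.14 when centred (adjusted p = 8e-06). Within arrays, *Rpl22l1* minus *Rpl22* was 0.35 ± 0.28 in brain, -0.59 ± 0.49 in muscle, -1.69 ± 0.62 in liver and -1.82 ± 0.33 in heart. Brain stood above liver and heart without overlap and overlapped muscle, where the array of KI mouse 3 had the highest value at 0.42 and *Rpl22* at 5.77, below all its muscle fellows. That is the array with the raised neuron markers, whose part in this value was not tested.

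The remaining pairs showed little. *Rpl32l* and *Rpl32* had mean levels of 7.11 and 7.63 in liver, 5.70 and 6.83 in brain, 6.89 and 7.81 in heart, and 7.03 and 8.0 in muscle, and their within-array difference spanned 0.60. Whether its probe also binds the messenger of *Rpl32* was not tested, so its values are uncertain. *Rpl10l*, an intronless copy known from testis, was not well above background except on 2 heart arrays and was not tested, with mean levels of -7.9 in liver, -7.6 in brain, -6.61 in heart and -6.67 in muscle. Its partner *Rpl10*, at 8.38, 7.15, 7.95 and 8.29, moved with the rest of the group.

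Outside the pairs, the widest tissue ranges were again those of genes low in brain at the 75th percentile scaling. *Rps2*, a protein of the entry side of the small subunit, had 7.82 ± 0.08 in liver, 5.69 ± 0.16 in brain, 7.57 ± 0.31 in heart and 7.60 ± 0.25 in muscle. Its brain difference of -1.98 (SE 0.12, limma adjusted p = 1.3e-11) was -0.89 under quantile normalization and -0.85 when centred, so it was lower in brain on all 3 scales. *Rps9*, which helps to guard decoding accuracy, behaved likewise, with -1.62, -0.55 and -0.49 and levels of 7.66, 5.76, 7.33 and 7.14 in liver, brain, heart and muscle.

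*Rplp0*, the base of the ribosomal stalk and a common reference gene, had 8.14 ± 0.32 in liver, 6.90 ± 0.15 in brain, 8.60 ± 0.26 in heart and 8.96 ± 0.10 in muscle. Muscle exceeded the others by 1.08 (SE 0.12, adjusted p = 2.6e-07), 0.25 under quantile normalization and 0.66 when centred. Brain was lower on all 3 scales, with -1.67, -0.43 and -0.53. *Rpl18*, a large-subunit protein, was lower in brain by differences of -1.59, -0.56 and -0.46 and higher in heart by 0.63, 0.59 and 0.38.

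For other genes the direction or the call in brain changed with the scaling. *Rps6* was lower in brain by -1.12 (SE 0.10, limma adjusted p = 4.5e-09) at the 75th percentile scaling and at 0.01 and 0.02 on the others, yet higher in liver on all 3 (0.85, 0.35 and 0.38). *Rpl5* and *Rpl11*, which bind Mdm2 when ribosome assembly is disturbed, had brain differences of -1.41 and -0.90 at the 75th percentile. On the quantile scale these were -0.57 for *Rpl5*, which stayed lower, and 0.29 for *Rpl11*, which turned. *Rpsa*, also known as a laminin receptor, went from -0.74 to 0.46. Its direction in brain also depended on the probe, with its 4 probes from -0.96 to 0.70 at the 75th percentile scaling.

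The subunits as wholes stayed close. On centred arrays the median of the 32 small-subunit genes was 0.18 in liver, -0.11 in brain, 0.10 in heart and 0.05 in muscle, and that of the 51 large-subunit genes was -0.14, 0.04, -0.09 and -0.05. The small-subunit median lay above the large-subunit one in liver on every array and below it in brain. These are offsets between groups of probes, of which the change between tissues can be read and the sign within a tissue cannot.

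Slides could be separated from tissue in 3 cases. The tissues on a slide came from unlike sets of mice, so mouse and age were not held equal. On slide 1 brain came from the mice aged 5 months and liver from all 6 mice. Slide 2 held brain of mice 2 and 3 and heart of mice 1 and 2 of each genotype. On slide 3 heart came from mouse 3 of each genotype and muscle from all 6 mice. Brain minus liver on slide 1 had a median over the 83 genes of -0.89, with 79 of 83 negative, and 0.28 after quantile normalization. Brain minus heart on slide 2 had -0.92, with 81 of 83 negative, and 0.03 after quantile normalization. Heart minus muscle on slide 3 had -0.11, with *Rpl3* at 1.55 and *Rpl39l* at -2.03.

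Over 24 arrays and 18311 genes, the levels most like those of *Rpl3l* were those of *Myom1* (Pearson r = 0.995), *Srl*, *Klhl30*, *Alpk3* and *Asb14* (0.994 each). For *Rps27l* they were *Cmbl* (0.991), *2310039H08Rik* (0.989), *Mlxipl* (0.988), *Cd164* (0.986) and *Dcaf11* (0.986). For *Rpl39l* the likeness was weaker, with *Mynn* at 0.864, *Usp2* at 0.863, *Nek3* at 0.862, *B330016D10Rik* at 0.861 and *Tacc2* at 0.86. The arrays form 4 tissue clusters and share mice, so these values describe tissue patterns.

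The second question was whether the point mutation moved the group within a tissue. It was not detectable for any single gene. In limma's comparison of 3 *Rap1* KI/KI with 3 WT mice, 0 of 81 genes tested in liver and 0 of 82 in brain, heart and muscle passed the adjusted threshold, beside 0.0% of all probes in each tissue. At an unadjusted p under 0.05 the counts were 0, 0, 1 and 0 in liver, brain, heart and muscle, beside 2.13%, 2.62%, 7.51% and 2.48% of all probes. The typical SE of a gene was 0.20, 0.18, 0.22 and 0.20 log2 units. In simulated data a true change of 1 log2 unit was called for 0% of changed probes in liver, brain and heart and 3% in muscle. The 0 calls therefore do not bear on changes of that size.

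The genes shifted together by small amounts. In liver 77 of 81 differences were negative with a median of -0.17 (-0.01 over all probes), in heart 79 of 82 with -0.20 (-0.02) and in muscle 73 of 82 with -0.11 (-0.07). In brain 77 of 82 were positive with a median of 0.11 (-0.05). Of all probes, 48.51% were positive in liver, 41.88% in brain, 47.84% in heart and 39.65% in muscle. Under quantile normalization the medians were -0.04, 0.16, 0.0 and -0.02 in liver, brain, heart and muscle. Positive differences then numbered 27, 79, 40 and 33 in the same order. In the authors' z-scores, rescaled as above, the medians were -0.27, 0.15, -0.16 and -0.08. With normexp background correction they were -0.15, 0.12, -0.20 and -0.09, so that quantile normalization removed most of the shift in liver, heart and muscle and the other settings did not. Genes of 1 array share that array's scaling and are not independent, and leaving out each mouse gave medians from -0.27 to -0.12 in liver, 0.04 to 0.16 in brain, -0.30 to -0.10 in heart and -0.20 to -0.06 in muscle.

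In brain every KI array was above every WT array for 11 of 82 genes, beside 4.0% of all probes, and wholly below for 0, beside 3.75%. The KI arrays were wholly below the WT arrays for 6 genes in liver (3.07% of all probes) and 10 in heart (8.68%), and for 0 in muscle (4.09%). The other way round they were wholly above for 0 in liver, heart and muscle (2.78%, 6.03% and 2.36%). The array medians of the members in brain were 6.23, 6.08 and 6.07 in WT and 6.24, 6.23 and 6.08 in KI, which overlapped. They overlapped in the other tissues too. In liver they were 7.59, 7.41 and 7.22 in WT and 7.38, 7.34 and 7.2 in KI. In heart they were 7.39, 7.09 and 7.47 against 7.08, 7.17 and 6.96, and in muscle 7.44, 7.31 and 7.38 against 7.43, 7.15 and 7.22.

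**Figure D4:**
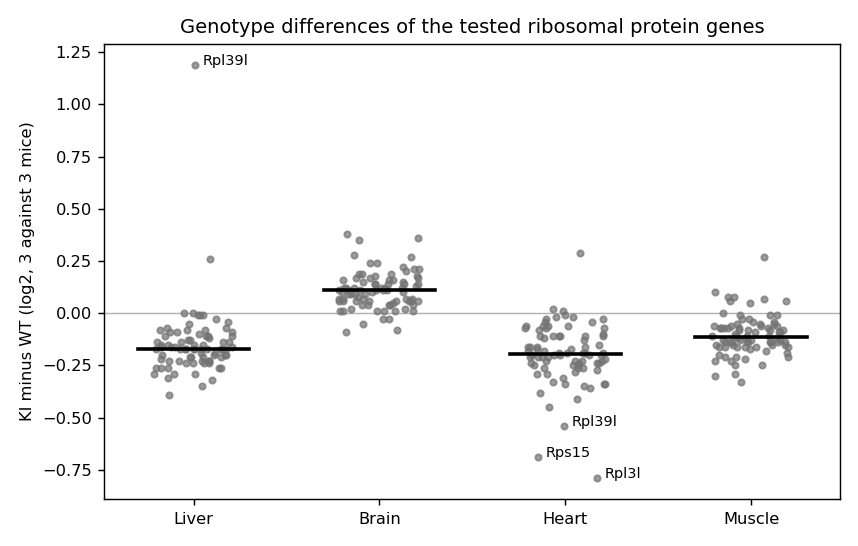
Log2 difference of *Rap1* KI/KI minus WT (3 mice each) for each tested gene (grey points) in the 4 tissues at the 75th percentile scaling; black bars are medians over the genes. The medians are -0.17 in liver, 0.11 in brain, -0.20 in heart and -0.11 in muscle, and the labelled *Rpl39l*, *Rps15* and *Rpl3l* lie outside the bulk without passing the test.

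Heart held the single gene under an unadjusted 0.05. *Rps15*, a protein of the head of the small subunit, had levels of 6.86, 6.6 and 7.44 in WT hearts and 6.46, 6.17 and 6.19 in KI hearts. All KI values were below all WT values, by a mean difference of -0.69 (SE 0.27, limma adjusted p = 0.65), or -0.87 to -0.45 when each mouse was left out. *Rpl3l* had 5.64, 5.33 and 5.29 in WT hearts and 4.90, 5.16 and 3.84 in KI hearts. Its difference was -0.79 (SE 0.37, limma adjusted p = 0.65), from -1.05 to -0.39 with each mouse left out. The 2 lowest values come from KI mice 1 and 3, whose hearts had the raised adipocyte markers (9 of the 10 marker genes were well above background in both genotypes), while their cardiomyocyte marker means, 7.93 and 8.14, lay within the WT range of 6.46 to 8.46. The part of these cells in the value was not tested.

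The other genes with the smallest p passed no threshold either. In heart *Rpl18* differed by -0.45 (SE 0.23, limma adjusted p = 0.65). In liver *Rpl13a* differed by -0.32 (SE 0.20), *Rps24* by -0.29 (SE 0.20) and *Rpl13* by -0.35 (SE 0.24), all with an adjusted p of 1. In brain *Rps18* differed by 0.38 (SE 0.16), *Rps27l* by 0.35 (SE 0.20) and *Rps15a* by 0.28 (SE 0.17), each wholly above WT and each with an adjusted p of 1. In muscle *Rpl3l* differed by -0.29 (SE 0.21), *Rpl3* by 0.27 (SE 0.21) and *Rps15* by -0.33 (SE 0.27), with adjusted p of 0.94. The lowest *Rpl3l* (6.21) and highest *Rpl3* (4.93) in muscle were both on the array of KI mouse 3. The part of its raised neuron markers in these values was not tested. The largest liver value, 1.19 for *Rpl39l* (SE 1.34), belongs to a probe near background.

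Whether the genotype difference varied between tissues was tested as an interaction over all 24 arrays. By limma's F test 0 of 82 genes passed, as did 0 of all probes, and at an unadjusted p under 0.05 the counts were 0 genes and 2.93% of all probes.

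The other genes of the translation apparatus were read from the same fits. Initiation factors, which load the small subunit onto messengers, were lower in brain for 31 of 37 and higher for 1 (median -0.97, and -0.47 under quantile normalization, with 21 lower and 13 higher). Ribosome biogenesis factors, which process and assemble ribosomal RNA, were lower in brain for 66 of 86 and higher for 10 (median -0.68, and -0.50 with 56 and 16 under quantile normalization). In liver 53 of them were higher and 11 lower (0.64), and 46 and 22 under quantile normalization (0.36). All probes also ran lower in brain, with 47.4% lower and 29.8% higher, and 44.9% and 32.3% under quantile normalization. In liver 39.4% of all probes were higher and 37.8% lower, and 38.3% and 39.6% under quantile normalization.

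Elongation factors split by tissue. Of 10, 6 were lower and 2 higher in brain, beside 47.4% and 29.8% of all probes, with a median of -1.01 that was -0.14 under quantile normalization. *Eef1a2*, the form of the elongation factor used in muscle and neurons, had mean levels of -7.67 in liver, 3.74 in brain, 4.32 in heart and 5.57 in muscle. *Eef1a1*, the usual form, had 7.83, 6.31, 6.33 and 5.47, so that muscle was the highest tissue for the first and the lowest for the second, as for *Rpl3l* and *Rpl3*. *Eif5a2* was higher in brain, at 1.74 against 0.0 in liver, -0.39 in heart and -0.78 in muscle.

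Among initiation factors the widest ranges were those of *Eif4b*, a helper of the messenger helicase (4.16, 1.01, 3.25 and 3.26 in liver, brain, heart and muscle), *Eif3j1* (2.82, 1.24, 2.08 and 4.1) and *Eif2s3x* (3.32, 0.85, 2.90 and 3.02). Among biogenesis factors they were *Ubtf*, which opens ribosomal DNA to RNA polymerase I (8.63, 4.80, 5.85 and 7.45), *Npm3* (-0.25, -3.84, -1.09 and -1.29) and *Tcof1* (0.72, 1.97, 2.92 and 3.89). *Ubtf* and *Npm3* were highest in liver and lowest in brain, whereas *Tcof1* was lowest in liver and highest in muscle.

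Of 8 genes for ubiquitin-fused ribosomal proteins and proteins at the ribosome, 8 were lower in brain (median -1.42), beside 47.4% of all probes. Under quantile normalization 5 were lower and 1 higher (-0.30), beside 44.9% and 32.3%. *Serp1*, which steadies membrane proteins at the endoplasmic reticulum, stood out with 4.60 in liver against -0.13 in brain, 0.98 in heart and 0.95 in muscle. *Rpl36al* had 6.59, 4.42, 5.46 and 6.18, and *Tpt1* 8.70, 7.36, 8.81 and 9.37. Of 15 regulators of pyrimidine-tract messengers, 8 were lower and 4 higher in brain, beside 47.4% and 29.8% of all probes. Under quantile normalization 6 were lower and 5 higher, beside 44.9% and 32.3%. In liver 10 were higher and 3 lower (39.4% and 37.8% of all probes), and 7 and 4 under quantile normalization (38.3% and 39.6%). *Eif4ebp1*, the repressor of cap-dependent translation under mTOR, had 5.83, 0.57, 5.70 and 5.72, and was lower in brain by a difference of -5.18 (limma adjusted p = 3.6e-15), or -4.88 under quantile normalization. *Larp1b*, at 5.26, 1.32, 4.07 and 4.63, and *Eif4ebp2*, at 5.07, 1.75, 3.26 and 5.07, were lowest in brain as well. By genotype, 0 genes of these lists passed the adjusted threshold in any tissue, and at an unadjusted p under 0.05 heart had 2 of 10 elongation, 3 of 37 initiation and 8 of 85 biogenesis factors, beside 7.51% of all probes, and liver 2 of 85 biogenesis factors and 2 of 15 regulators, beside 2.13%.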

How the data were processed

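RNA of each tissue was hybridized to one-colour (Cy3) Agilent arrays. The authors deposited intensity values, namely processed signals from which Feature Extraction had taken the background, and arrays were not normalized to one another. A further deposited table holds score values, z-scores within each array, which served as an alternative. For the fits they were multiplied by 4.234, the mean SD of the log2 signals. The deposited spot flags (well above background, saturated, outlier) were used as given. The number of arrays limits the precision.

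Levels are log2 processed signal minus the log2 75th percentile of the array, without control and outlier spots, and spots of a probe were averaged. Accessions were named through RefSeq. Of 53 genes with several probes, the direction of a tissue difference depended on the probe in 11 (liver, brain), 20 (heart) or 17 (muscle). Probes entered the test of a tissue when 3 or more of its 6 arrays were well above background, and the test over tissues when any tissue met this. limma 3.58.1 in R 4.3.3 fitted genotype within each tissue, and 8 group means for tissue contrasts and the interaction, two-sided, with Benjamini-Hochberg adjustment over all tested probes at 0.05 (statmod 1.5.0). The procedures were run on simulated data, where a genotype change of 2 log2 units was called for 44.8% to 50.7% of the changed probes.

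The alternatives were quantile normalization, normexp with an offset of 50, the authors' table, other filters and probe rules, each mouse left out, mouse, slide or age as a block, and 1 genotype only. Centring on the members and the values within slides were added after seeing the data. The members and lists were chosen with earlier results of these data known. Named genes are the 12 members with the widest range of tissue means, like-named pairs, 3 per tissue by genotype p, *Rplp0*, *Rpsa*, *Rps6*, *Rpl5*, *Rpl11*, 3 per pathway list, and 5 genes most like each of 3 members, some of which are not reported here.

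Mouse numbers pair tissues, because the same mouse gave all 4; correlations of deviations between its tissues ran from -0.3 to 0.37 over 36 pairs (median 0.074). Genotypes are unpaired.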

Additional observations from a re-analysis of the deposited data

How the results depend on the processing

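The count of members called in the genotype comparisons was 0 in every tissue under all settings run, which with 3 against 3 mice says nothing about stability. With the mouse as a replicate block the tissue calls were 56 in liver, 81 in brain, 40 in heart and 67 in muscle, against 56, 81, 39 and 66. It changed no other call of a member. Of 42463 probes, 32913, 32932, 24645 and 26494 were then called, against 32769, 32780, 24434 and 26256. Against the other tissues, centred on the members, which brings their median close to 0 by construction, the medians were -0.13 in liver, 0.12 in brain, -0.01 in heart and 0.06 in muscle, with 53 called in brain and 40 in muscle, and under quantile normalization -0.22, 0.15, 0.12 and 0.02, with 31 called in muscle. The authors' table, with its z-scores rescaled to a log2-like scale, gave -0.14 in liver, -0.70 in brain and 0.60 in muscle. The heart genotype median was 0.0 under quantile normalization and, again by construction near 0, 0.05 when centred. With the slide as a block, 18 were called in liver and 25 in muscle, and the brain minus liver median within slide 1 was -0.89. Against 39 calls in heart with all arrays, beside 24434 of 42463 probes, WT arrays only gave 19, beside 17873 of 38539, and a brain median of -1.15. KI arrays only gave 35 in liver (28257 of 39723 probes), 9 in heart (17976 of 39723) and a brain median of -0.90. These fits have fewer arrays, and other causes were not tested. With each mouse left out, calls ran from 45 to 57 in liver and 59 to 66 in muscle. In heart they ran from 21 (without KI mouse 2) to 43. Beside these lowest and highest counts stood 30733 of 41718 and 31123 of 41723 probes in liver. In muscle these were 23299 of 41718 and 24388 of 41849, and in heart 21432 of 41649 and 22103 of 41849. In brain the calls stayed at 81, beside 30706 of 41649 to 31799 of 41865 probes. The *Rpl22l1* difference of brain from the others, 0.01, was -0.01 on KI arrays only, and -0.01, -0.07 and -0.13 without WT mouse 1, WT mouse 2 and KI mouse 1. Its muscle difference was 0.81 with the slide as a block. At an unadjusted p under 0.05 the fit of all 24 arrays gave 4 heart members by genotype, against 1 of 82 in the fit of heart alone. In the fit of heart alone 7.51% of all probes were under 0.05. The share for the fit of all 24 arrays is not given here, so the 4 cannot be read as a result about these genes. Dim probes limit *Rpl3l* and *Rpl39l* in liver and *Rpl10l* throughout.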
